A study of Homo sapiens with 36 samples.

Results

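The genes described here encode inhibitors of cyclin-dependent kinases (CDK) and the GADD45 family of growth arrest proteins. They were taken by name, as the probes of the expression array whose platform gene symbol was CDKN1A, CDKN1B, CDKN1C, CDKN2A, CDKN2B, CDKN2C, CDKN2D, GADD45A, GADD45B or GADD45G. Each of these 10 genes had 1 probe. The probes of 8 genes carried values on all 36 arrays, among 13041 probes with values of 30968 gene probes in all. The probes of CDKN1C and CDKN2A were blank on every array and these genes were not analysed here.

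Arrays were run on U373, an established human glioblastoma cell line that the study describes as lacking both the CC3 protein and functional p53. U373cc3 is a clone with stable, constitutive expression of exogenous CC3 (also called TIP30, the product of HTATIP2), and U373neo is the control clone. The 4 groups were U373cc3 and U373neo taken 2 h after UV at a labelled dose of 20 J/m2, and untreated U373cc3 and U373neo. Each group had 3 biological replicates of 3 technical arrays each, and each CC3 state was 1 clone, so an effect of CC3 and any other difference between the clones cannot be told apart. The methods of the study give a lower UV dose than the labels, while its legend to the list of genes changed by UV gives the labelled dose. Cells were harvested in triplicate, with no word on separate cultures, so p-values measure the spread between these samples, which may be technical.

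Progression of the cell cycle into DNA replication depends on CDKs bound to cyclins. The Cip/Kip inhibitors, CDKN1A (p21CIP1) and CDKN1B (p27KIP1), bind complexes of cyclins with several CDKs. The INK4 inhibitors, CDKN2B (p15), CDKN2C (p18) and CDKN2D (p19), bind CDK4 and CDK6 and keep them from D-type cyclins. GADD45A, GADD45B and GADD45G are small stress proteins that bind the kinase MAP3K4 upstream of p38 and JNK, and also PCNA, CDK1 and cyclin B1. CDKN1A and GADD45A are classic targets of p53 after DNA damage, and both can also be induced without it.

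The arrays of both treatments had been normalized apart by the authors, with median intensities of 746 to 748 on UV arrays and 895 to 896 on untreated arrays. Replicates of a group correlated at 0.971 to 0.996 over arrays, and arrays of different groups at 0.918 to 0.977. Because of the separate scaling, clones were compared on the deposited intensities, and UV changes on intensities normalized together over the 11602 probes with values on all arrays. The probe of HTATIP2 was blank, so the expression of CC3 RNA could not be checked. Of 10 astrocyte and glioma markers only SOX9 carried values, of 607 to 702 in U373cc3 after UV and 953 to 1040 in untreated U373cc3, against 603 to 633 in U373neo after UV and 729 to 792 in untreated U373neo, and the probes of GFAP, S100B, SOX2, NES and CD44 were among the blank ones. Of 5 fibroblast markers COL1A1 and LUM carried values, and their summed intensity was 2088 to 2559 in U373cc3 after UV and 2013 to 2264 in untreated U373cc3, against 4341 to 4907 in U373neo after UV and 3997 to 4210 in untreated U373neo. The 4 neuronal markers with values, of 5, summed to 12885 to 13376 in U373cc3 after UV and 13125 to 13554 in untreated U373cc3, against 9388 to 12179 in U373neo after UV and 11967 to 12122 in untreated U373neo. Both sums lay apart between the clones before and after UV, as SOX9 did before it. These are deposited values, scaled apart by treatment, and the part of these markers in the differences below was not tested. Of the leukocyte markers CD14 alone carried values, and its ranges overlapped between the clones, while no epithelial marker carried any. In RNA from whole cultures, a change in all cells and a change in some of them cannot be told apart.

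UV irradiation was followed by a large rise of CDKN2B and GADD45B in both clones and by smaller changes of other members. In U373neo, CDKN2B was 5.95-fold higher after UV and GADD45B 4.33-fold, and GADD45A, CDKN2D and CDKN1A rose as well. In U373cc3, CDKN2B was 4.40-fold higher and GADD45B 3.46-fold, and no other member passed the test upward, GADD45A with 0.27 and CDKN2D with 0.21 on the log2 scale lying nearest to it. CDKN1B and GADD45G fell in both clones, and CDKN2C did not pass the test in either. In U373cc3 4 of 8 members changed, against 57.7% of the 11602 probes tested, and in U373neo 7 of 8 members changed, against 59.5% of the probes (limma, Benjamini-Hochberg adjusted p under 0.05). In U373cc3 2 rose (30.8% of probes) and 2 fell (26.9%), and in U373neo 5 rose (32.8%) and 2 fell (26.7%). Replicates of UV and untreated cells did not overlap for 6 of 8 members in U373cc3, against 65.4% of probes, and for 8 of 8 in U373neo, against 64.3%. Changes of 2-fold or more upward were made by 2 of 8 members in each clone, against 2.02% of probes in U373cc3 and 1.85% in U373neo.

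**Figure D1:**
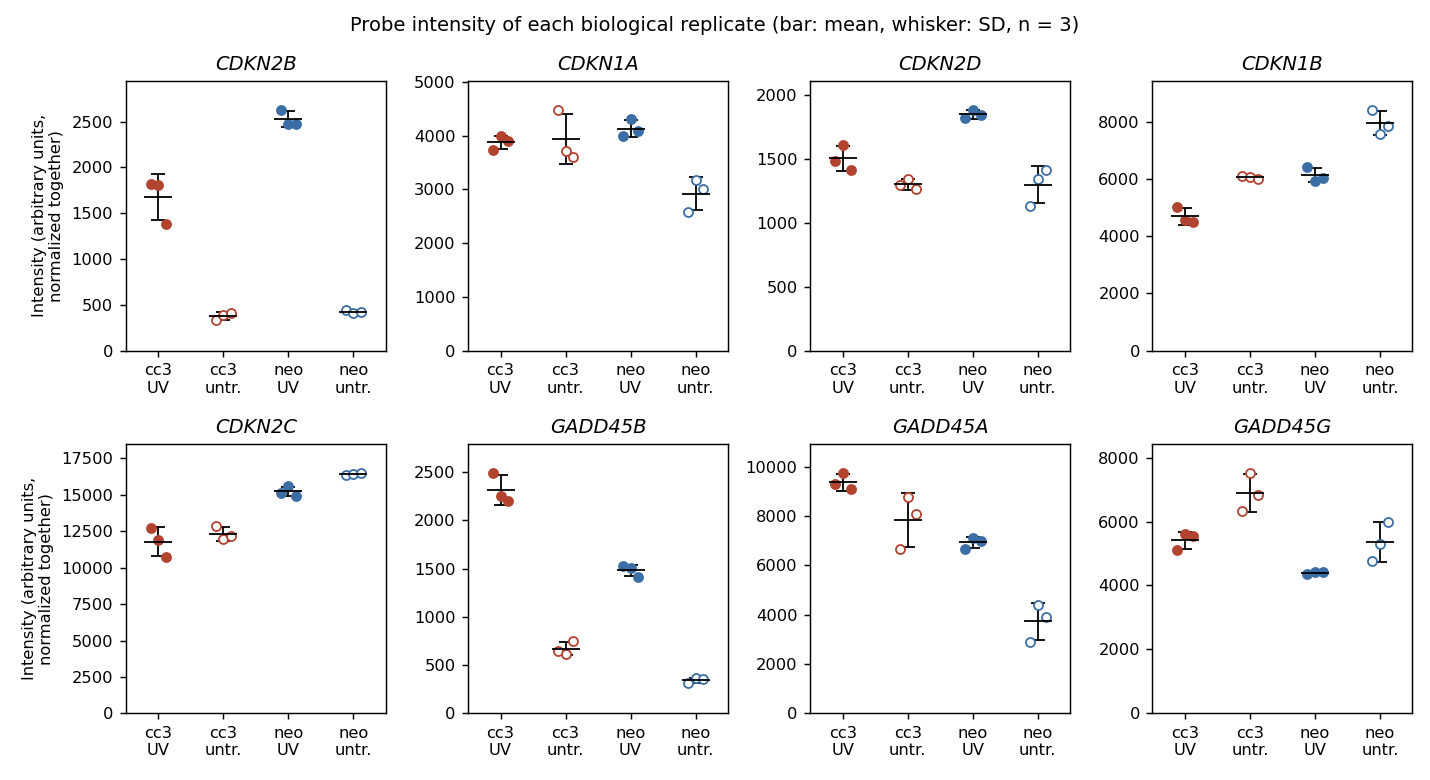
Probe intensity (arbitrary units, all arrays normalized together, linear axes from 0) of the 8 measured members in U373cc3 (red) and U373neo (blue), after UV (filled) and untreated (open); each point is 1 biological replicate, the bar is the mean and the whisker the SD (n = 3). CDKN2B and GADD45B stand far higher after UV in both clones, while CDKN1A and GADD45A show their lowest values in untreated U373neo.

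CDKN2B encodes p15, an INK4 inhibitor best known as a target of TGF-beta signalling. Its intensities were 1821, 1813 and 1385 in U373cc3 after UV, against 334.9, 389.7 and 412.0 in untreated U373cc3. They were 2627, 2476 and 2471 in U373neo after UV, against 441.7, 407.0 and 425.1 in untreated U373neo. No replicate of a UV group came near an untreated one, and U373cc3 replicate 3 was the lowest of the UV samples. The UV change was 2.14 on the log2 scale in U373cc3 (SE 0.11, adjusted p = 7.08e-08) and 2.57 in U373neo (SE 0.11, adjusted p = 1.51e-08). By size of change, this probe stood 21st of 11602 in U373cc3 and 3rd in U373neo.

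GADD45B, a GADD45 gene that responds early to stress and to cytokines, had intensities of 2494, 2248 and 2202 in U373cc3 after UV and of 649.2, 613.9 and 750.7 in untreated U373cc3. In U373neo they were 1524, 1507 and 1417 after UV and 311.2, 361.9 and 355.7 without it. All 4 groups were apart from each other, in the order U373cc3 after UV, U373neo after UV, untreated U373cc3 and untreated U373neo. The UV change was 1.79 in U373cc3 (SE 0.09, adjusted p = 7.00e-08) and 2.11 in U373neo (SE 0.09, adjusted p = 1.64e-08), and the probe stood 73rd and 28th by size. GADD45B lies on chromosome 19 and CDKN2B on chromosome 9.

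The 250 bases upstream of the annotated start are shown for the pair of genes with the largest UV rise and for the Cip/Kip genes, as reference sequence from RefSeq (GRCh38.p14). The table used here held such a sequence for 8 of the 10 members, GADD45A and CDKN1C not among them. The positions are chr9:22009306-22009555 on the minus strand for CDKN2B, chr19:2475877-2476126 on the plus strand for GADD45B, chr6:36678464-36678713 on the plus strand for CDKN1A and chr12:12717118-12717367 on the plus strand for CDKN1B. Sequences run 5′ to 3′ and end at the base before the start, and capitals mark exact matches to 6 motifs, searched on either strand. A CRE core is TGACG, the core of the element that CREB and ATF proteins bind. The GC box, which binds SP1, is GGGCGG. Near the start, a TATA box, here with the letters TATAAA, binds the general machinery. The CCAAT box, which binds NF-Y, has its name as its letters. AP-1 sites, which bind FOS and JUN proteins, are TGACTCA here. SMAD elements, which bind the mediators of TGF-beta, are CAGACA.
CDKN2B: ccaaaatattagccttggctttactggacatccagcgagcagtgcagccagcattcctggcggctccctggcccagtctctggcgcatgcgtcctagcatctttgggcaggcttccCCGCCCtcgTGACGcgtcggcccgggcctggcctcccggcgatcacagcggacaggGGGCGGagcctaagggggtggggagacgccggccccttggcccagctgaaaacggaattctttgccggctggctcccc
GADD45B: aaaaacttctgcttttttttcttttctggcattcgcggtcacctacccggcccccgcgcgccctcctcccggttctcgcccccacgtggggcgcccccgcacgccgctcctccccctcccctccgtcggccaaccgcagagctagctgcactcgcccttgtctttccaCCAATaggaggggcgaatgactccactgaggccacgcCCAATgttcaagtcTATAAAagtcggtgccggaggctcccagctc
CDKN1A: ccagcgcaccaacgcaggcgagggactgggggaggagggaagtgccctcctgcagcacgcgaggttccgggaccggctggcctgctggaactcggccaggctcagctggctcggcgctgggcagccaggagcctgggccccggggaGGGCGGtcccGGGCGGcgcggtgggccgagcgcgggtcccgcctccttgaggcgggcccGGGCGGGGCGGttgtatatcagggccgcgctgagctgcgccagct
CDKN1B: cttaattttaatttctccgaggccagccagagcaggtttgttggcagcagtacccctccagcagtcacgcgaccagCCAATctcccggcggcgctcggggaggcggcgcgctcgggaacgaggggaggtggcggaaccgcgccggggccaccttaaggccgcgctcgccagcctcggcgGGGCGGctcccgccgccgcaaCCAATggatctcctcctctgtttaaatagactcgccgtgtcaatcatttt
CDKN2B held 1 CRE core, 125 bases before the start, and GC boxes 134 and 78 bases before it, where CRE cores occurred in 21.7% and GC boxes in 42.3% of 27305 RefSeq promoters of this length. GADD45B held a TATA box 31 bases before the start, present in 11.1% of promoters, and CCAAT boxes at 82 and 45 bases, present in 33.0%. CDKN1A had 4 GC boxes, of which those at 45 and 40 bases overlapped, and CDKN1B had 1 GC box and 2 CCAAT boxes. No AP-1 or SMAD element was matched in these 4 windows, and such elements occurred in 4.16% and 13.6% of promoters. CDKN2B and GADD45B shared no motif of this set. These matches describe letters only.

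CDKN1A, the p21CIP1 gene, had intensities of 3740, 3989 and 3893 in U373cc3 after UV, against 4477, 3721 and 3609 in untreated U373cc3. In U373neo the intensities were 3997, 4303 and 4090 after UV, against 2574, 3172 and 3014 without it. The samples of U373neo were clear of each other, whereas those of U373cc3 overlapped. The log2 UV change was -0.02 in U373cc3 (95% confidence interval -0.23 to 0.20, adjusted p = 0.891) and 0.51 in U373neo (SE 0.10, adjusted p = 0.000792), a 1.42-fold rise. Untreated U373neo was the lowest group, and the neighbours among the other 3 groups overlapped.

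CDKN1B, the p27KIP1 gene, fell by a like amount in both clones. Intensities were 5032, 4580 and 4484 in U373cc3 after UV against 6087, 6067 and 5999 in untreated U373cc3, and 6410, 5939 and 6046 in U373neo after UV against 8409, 7578 and 7854 in untreated U373neo. Both UV groups lay below their untreated groups. This gave a log2 change of -0.37 in U373cc3 (SE 0.07, adjusted p = 0.000786) and -0.37 in U373neo (SE 0.07, adjusted p = 0.000544). When each array was instead centred on its median, the change in U373neo was -0.14 and did not pass (adjusted p = 0.101).

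Of the remaining INK4 genes, CDKN2D had intensities of 1484, 1616 and 1419 in U373cc3 after UV against 1299, 1349 and 1264 in untreated U373cc3, and of 1820, 1887 and 1850 in U373neo after UV against 1136, 1348 and 1414 in untreated U373neo. UV groups lay above untreated ones in both clones. CDKN2D had a log2 change of 0.21 in U373cc3, which did not pass (adjusted p = 0.0553), and 0.52 in U373neo (SE 0.08, adjusted p = 0.000256). The U373cc3 value passed under 7 alternatives, among them median centring (0.24, adjusted p = 0.0251), single arrays (adjusted p = 0.0173) and omission of U373cc3 UV replicate 3 (0.25, adjusted p = 0.0483). On the deposited values it was 0.00063 (adjusted p = 0.996). CDKN2C, whose product p18 binds CDK6 preferentially, had 12708, 11921 and 10726 in U373cc3 after UV against 12881, 11959 and 12159 in untreated U373cc3, and 15144, 15594 and 14934 in U373neo after UV against 16347, 16399 and 16513 in untreated U373neo. Its samples lay apart by clone, and in U373neo the UV samples also lay below the untreated ones. The log2 UV change was -0.07 in U373cc3 (95% confidence interval -0.22 to 0.08) and -0.11 in U373neo (95% confidence interval -0.26 to 0.04), with adjusted p-values of 0.418 and 0.201. With each array centred on its median the values were 0.25 and 0.23 and passed the test in the opposite direction (adjusted p = 0.00766 and 0.0129). Under the significance test named in the methods of the study, the U373neo change passed as a fall, with and without adjustment. The U373cc3 change did not pass under it.

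GADD45A, the founding member of its family, had intensities of 9288, 9767 and 9100 in U373cc3 after UV against 6663, 8791 and 8089 in untreated U373cc3. In U373neo the intensities were 6688, 7131 and 7000 after UV against 2893, 4381 and 3930 in untreated cells. UV samples lay above untreated samples in each clone, and untreated replicate 1 was the lowest of its group in both. The log2 change was 0.27 in U373cc3, which did not pass (95% confidence interval -0.04 to 0.57, adjusted p = 0.118), and 0.91 in U373neo (SE 0.14, adjusted p = 0.000142), a 1.89-fold rise. The U373cc3 value passed with each array centred on its median (0.54, adjusted p = 0.00406), over single arrays (adjusted p = 0.0224), and with the serial range added (0.19, adjusted p = 0.0309). Arrays fell into 3 ranges of serial numbers, called A, B and C here. All 3 arrays of untreated U373neo replicate 1 were in range C. That range held no other U373neo array and no UV array, so this replicate and range C cannot be told apart in U373neo. The U373cc3 value was 0.40 within range A (3 UV and 4 untreated arrays) and 0.08 within range B (6 and 4 arrays), and the U373neo value within range A was 0.77. The U373cc3 UV arrays of range A were all of replicate 3, and range B held all those of the other replicates. Range and replicate cannot be told apart among them.

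GADD45G had intensities of 5114, 5599 and 5550 in U373cc3 after UV against 6327, 7529 and 6817 in untreated U373cc3, and of 4367, 4412 and 4435 in U373neo after UV against 4779, 5293 and 6001 in untreated U373neo. It was the GADD45 gene that fell, by 0.34 on the log2 scale in U373cc3 (SE 0.09, adjusted p = 0.00719) and by 0.28 in U373neo (SE 0.09, adjusted p = 0.0203). The fall in U373neo did not pass without untreated U373neo replicate 3 (-0.19, adjusted p = 0.0883), and with each array centred on its median neither did (-0.13 in U373cc3, adjusted p = 0.208, and -0.10 in U373neo, adjusted p = 0.337).

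UV changes depended on how the arrays were scaled, and not by an equal amount for each member. The median change of all probes was 0.06 in U373cc3 and 0.07 in U373neo after joint normalization, -0.04 and -0.05 on deposited values, and 0.20 and 0.19 with median centring. Higher probes made up 53.4% of the changed ones in U373cc3 and 55.1% in U373neo after joint normalization, 38.6% and 42.2% on deposited values, and 66.6% and 65.5% with centring. Relative to the median of all probes, CDKN1B lay at -0.43, -0.37 and -0.37 in U373cc3 and at -0.44, -0.33 and -0.33 in U373neo under these 3 scalings. GADD45G lay at -0.40, -0.33 and -0.33 in U373cc3 and at -0.34, -0.29 and -0.29 in U373neo. CDKN2B was at least 1.97 and GADD45B at least 1.62 above that median in either clone under each of the 3 scalings. Centring shifts each array by a constant, so relative to the median the deposited and centred values are equal by construction. They are not separate checks. CDKN2C changed side, with -0.13, 0.06 and 0.06 in U373cc3.

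**Figure D2:**
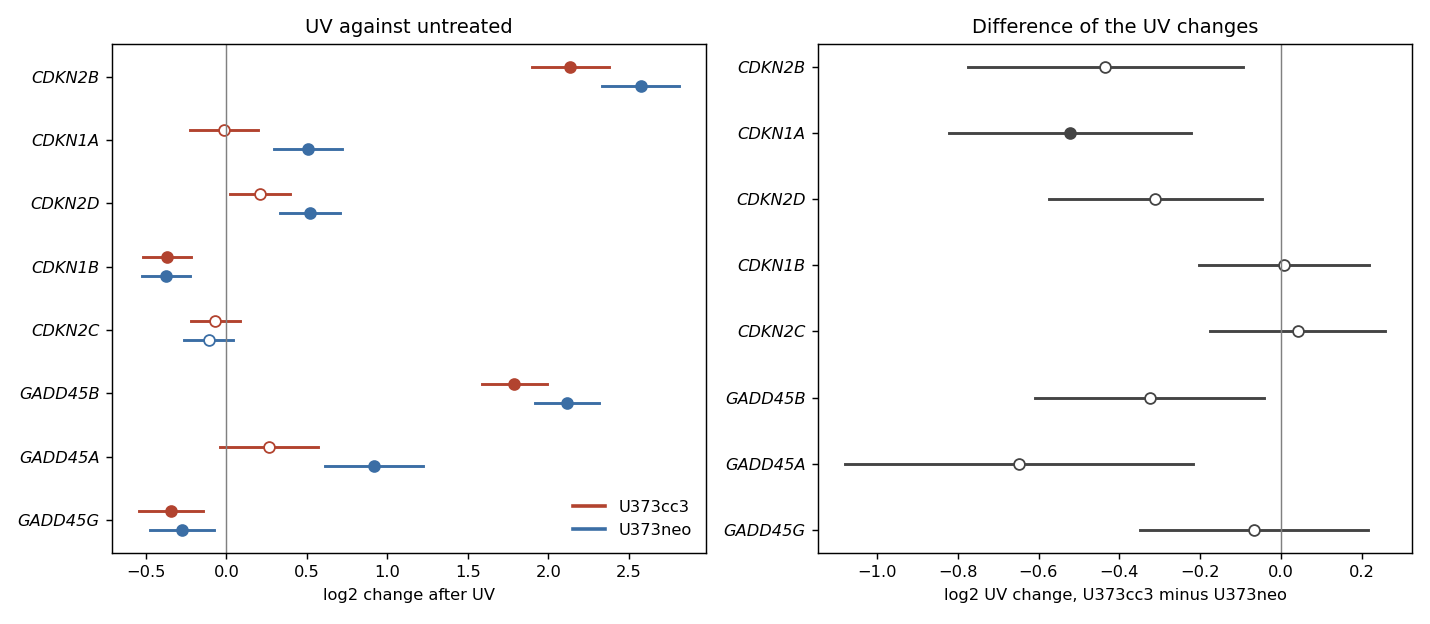
Left, log2 change after UV (points) with 95% confidence intervals (lines) for each member in U373cc3 (red) and U373neo (blue), from limma on 3 replicates a group with all arrays normalized together; right, the U373cc3 change minus the U373neo change. Filled points have an adjusted p under 0.05, which in the right panel holds for CDKN1A alone.

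**Figure D3:**
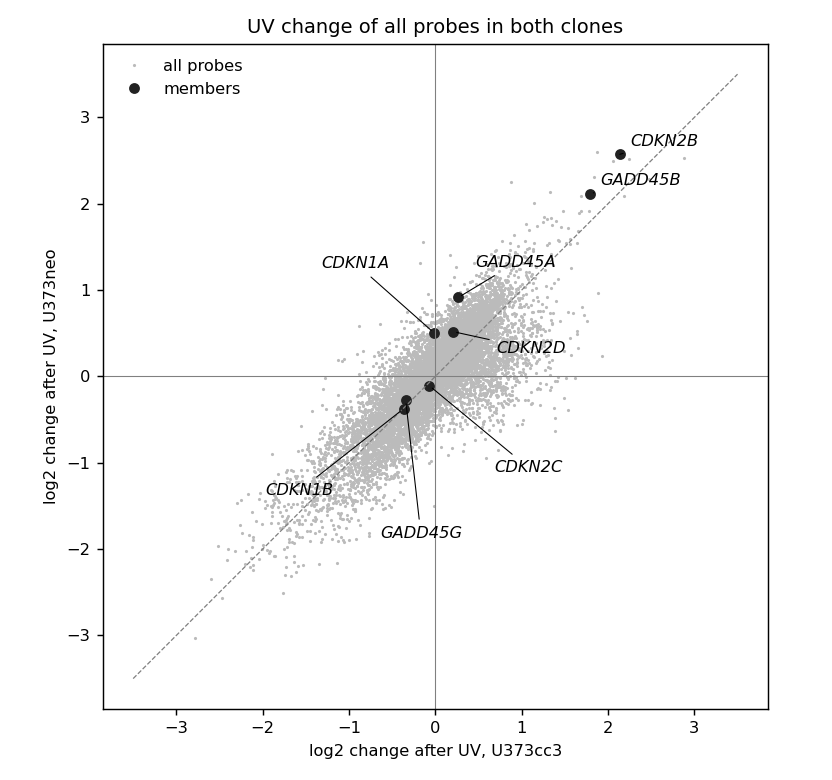
Log2 change after UV in U373cc3 (horizontal axis) and in U373neo (vertical axis) of the 11602 probes with values on all arrays (grey) and of the 8 members (black, named); the dashed line marks equal change. CDKN2B and GADD45B lie at the upper right edge of all probes, and CDKN1A lies on the vertical line of no change in U373cc3.

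The measured members are short genes, of 1544 bases (GADD45G) to 13890 bases (CDKN2C) in the RefSeq annotation, and short genes as a whole lay higher after UV. Measured genes were divided by length into 10 classes, and in the shortest class (66 to 5191 bases, 871 genes) the median log2 UV change was 0.27 in U373cc3 and 0.36 in U373neo. GADD45A, CDKN2D, CDKN1B, GADD45B and GADD45G belong to this class. The U373cc3 changes of GADD45A and CDKN2D stood amid it, with 50.3% and 58.7% of its genes above them. GADD45B was exceeded by 0.126% of this class in each clone, and CDKN2B by 0% of its own, the next class, in U373cc3 and 0.125% in U373neo. CDKN1B and GADD45G were low for their length, with 95.0% and 94.0% of the class above them in U373cc3 and 97.5% and 95.9% in U373neo. The part of gene length in these changes was not tested.

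Genes that work with the inhibitors changed in both directions after UV. Of all probes, 30.8% rose and 26.9% fell in U373cc3, and 32.8% rose and 26.7% fell in U373neo. Of 20 cyclins, CDKs and CDK activators 17 were measured. In U373cc3 2 rose and 5 fell, with the phosphatase CDC25A (-0.89), CDK7 (-0.79) and its partner MNAT1 (-0.74) changing most, and in U373neo 4 rose and 8 fell, led by MNAT1 (-0.96), cyclin E1 (CCNE1, 0.87) and cyclin A2 (CCNA2, -0.83). Of 17 RB and E2F genes, which carry the signal of CDK4 and CDK6 to replication genes, 2 rose and 12 fell in U373cc3 and 3 rose and 12 fell in U373neo. E2F3 (-1.54 in U373cc3, -1.46 in U373neo), LIN9 (-1.18, -1.25) and E2F5 (-1.18, -0.99) fell most. The median of this list was -0.55 in U373cc3 and -0.43 in U373neo, against 0.02 and 0.04 over the 7986 genes tested. Here and in the other lists after UV, the part of gene length was not tested. Of 13 genes for turnover of CDK inhibitors 12 were measured, and 3 rose and 5 fell in each clone, led by the ubiquitin ligase subunits FBXW7 (-1.31 in U373cc3, -1.08 in U373neo), DTL (-0.83, -0.62) and CUL1 (-0.69, -0.89).

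Of 11 partners of the GADD45 proteins 8 were measured. Of these, 5 fell and 0 rose in U373cc3, with 3 not past the threshold, and 5 fell and 1 rose in U373neo, with 2 not past it. Among all probes, 26.9% fell and 30.8% rose in U373cc3, and 26.7% fell and 32.8% rose in U373neo. MAPK14, which encodes p38alpha, changed by -0.97 in U373cc3 and -1.24 in U373neo, and MAPK8, which encodes JNK1, by -0.77 and -1.43. MAP3K4, the kinase that GADD45 proteins bind, changed by -0.68 and -1.22. All of these passed the test.

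Of 20 transcription regulators that act on CDK inhibitor or GADD45 genes, 17 were tested after UV. In U373cc3 4 rose (30.8% of all probes) and 7 fell (26.9%), and in U373neo 4 rose (32.8%) and 9 fell (26.7%). HEXIM1, which restrains the elongation factor P-TEFb, rose by 2.88 in U373cc3 and 2.53 in U373neo. FOXO1, a forkhead activator of CDKN1B, changed by -2.60 and -2.34, and NFKB1, an NF-kappaB subunit, by -1.32 and -1.28. Of 16 Polycomb genes, whose products repress the CDKN2A and CDKN2B locus, 10 were measured, with 3 higher and 6 lower in U373cc3 and 1 higher and 5 lower in U373neo. SUZ12 (-1.07, -1.45) and EZH2 (-0.69, -0.76) were among those that fell in both clones. MTAP, which lies beside CDKN2A, changed by -0.78 in U373cc3 and -0.76 in U373neo while CDKN2B rose.

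Among 19 p53 target genes, 11 were tested after UV. In each clone 6 rose, against 30.8% of all probes in U373cc3 and 32.8% in U373neo. In U373cc3 3 fell (26.9% of probes), and in U373neo 2 fell (26.7%). PLK3, a stress kinase, rose by 1.54 in U373cc3 and 1.72 in U373neo, FDXR, ferredoxin reductase, by 0.76 and 0.92, and PPM1D, a phosphatase of the damage response, changed by -1.31 and -0.95. Among 11 measured growth arrest and stress genes of 13, 5 rose in each clone, and 4 fell in U373cc3 and 1 in U373neo. Besides HEXIM1, which stands on this list too, the largest changes were DDIT4 (-0.68) and BTG3 (-0.61) in U373cc3 and TOB1 (0.81) and BTG1 (0.58) in U373neo.

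Before UV, the GADD45 genes were all higher in U373cc3 than in U373neo, and the CDK inhibitors moved both ways. GADD45A was 2.02-fold and GADD45B 1.98-fold higher in U373cc3, and GADD45G and CDKN1A were higher by less. CDKN1B and CDKN2C were lower, and CDKN2B and CDKN2D did not pass the test. In all, 6 of 8 members changed between the untreated clones, against 38.2% of 12300 probes, 4 of them upward (20.8% of probes) and 2 downward (17.3%). The median change of the members was 0.18 on the log2 scale, against 0.01 over all probes.

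GADD45A had deposited intensities of 6679, 8680 and 8021 in untreated U373cc3, against 3050, 4511 and 4072 in untreated U373neo. GADD45B had 706.8, 668.0 and 816.0 in U373cc3, against 333.7, 390.0 and 383.8 in U373neo. GADD45G had 6364, 7501 and 6826 in U373cc3, against 4889, 5384 and 6058 in U373neo. Every U373cc3 sample lay above every U373neo sample for each of the 3 genes. Groups without overlap were found for 6 of 8 members, against 49.4% of probes. Log2 changes were 1.02 for GADD45A (SE 0.13, adjusted p = 0.000109), 0.98 for GADD45B (SE 0.09, adjusted p = 9.16e-06) and 0.34 for GADD45G (SE 0.09, adjusted p = 0.00931). Taken separately in range A, range B and range C, these values were 0.71, 0.93 and 1.24 for GADD45A, 0.84, 0.85 and 1.31 for GADD45B, and 0.23, 0.27 and 0.48 for GADD45G. Range B held 1 array of untreated U373neo and range C 1 of untreated U373cc3. The untreated U373neo arrays of range C were all of replicate 1.

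CDKN1A had deposited intensities of 4593, 3863 and 3755 in untreated U373cc3, against 2728, 3328 and 3169 in untreated U373neo. CDKN1B had 6137, 6114 and 6054 in U373cc3, against 8321, 7545 and 7804 in U373neo. CDKN2C had 12458, 11615 and 11789 in U373cc3, against 15781, 15834 and 15948 in U373neo. CDKN1A was higher and the other 2 genes lower in every U373cc3 sample. The log2 change was 0.40 for CDKN1A (SE 0.09, adjusted p = 0.00534), -0.37 for CDKN1B (SE 0.07, adjusted p = 0.00128) and -0.41 for CDKN2C (SE 0.07, adjusted p = 0.000853). For CDKN1A the value within ranges A, B and C was 0.44, 0.31 and 0.20.

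CDKN2B had deposited intensities of 359.0, 419.7 and 444.6 in untreated U373cc3, against 478.8, 440.4 and 460.7 in untreated U373neo. CDKN2D had 1395, 1448 and 1359 in U373cc3, against 1227, 1449 and 1517 in U373neo. The groups overlapped for both genes. The log2 change was -0.18 for CDKN2B (95% confidence interval -0.42 to 0.07, adjusted p = 0.225) and 0.01 for CDKN2D (95% confidence interval -0.17 to 0.19, adjusted p = 0.946).

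**Figure D4:**
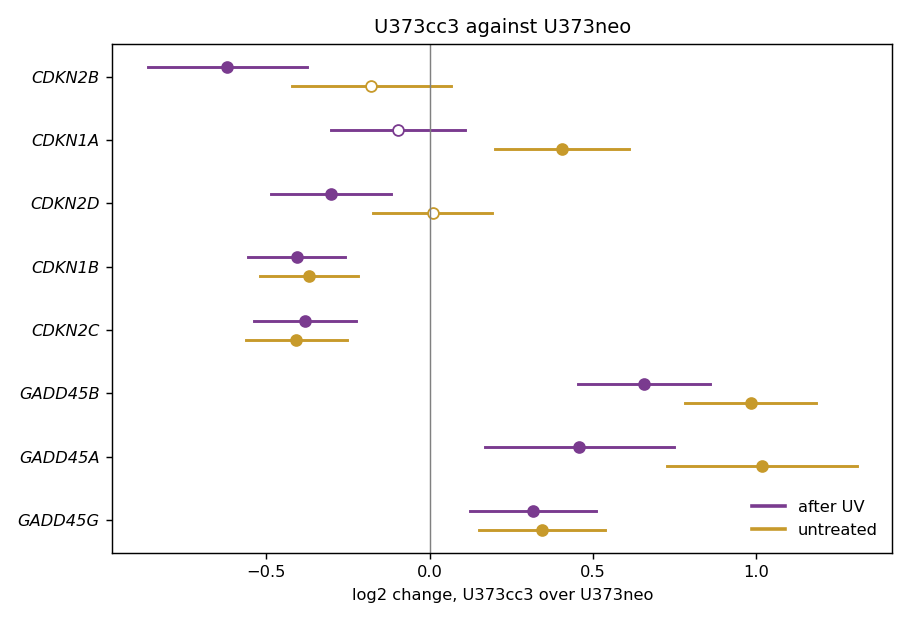
Log2 change of U373cc3 over U373neo (points) with 95% confidence intervals (lines) for each member, after UV (purple) and untreated (ochre), from limma on deposited values with 3 replicates a group. Filled points have an adjusted p under 0.05; the GADD45 genes lie to the right of 0, and CDKN1B and CDKN2C to the left, in both conditions.

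After UV, 7 of 8 members differed between the clones, against 38% of 12343 probes. The 3 GADD45 genes were again higher in U373cc3 (higher calls were 18.2% of probes), and 4 CDK inhibitors were lower (19.8%). CDKN2B was 1.54-fold lower in U373cc3 and CDKN2D 1.23-fold lower, although neither had passed before UV. CDKN1A did not pass the test. The median change of the members was -0.20, against 0.01 over all probes.

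CDKN2B had deposited intensities of 1701, 1694 and 1289 in U373cc3 after UV, against 2483, 2332 and 2327 in U373neo after UV. CDKN2D had 1382, 1506 and 1321 in U373cc3, against 1699, 1762 and 1728 in U373neo. CDKN1B had 4933, 4470 and 4368 in U373cc3, against 6378, 5879 and 5994 in U373neo. All U373cc3 samples lay below all U373neo samples, and for the 8 members no groups overlapped after UV, against 51% of probes. The log2 change was -0.62 for CDKN2B (SE 0.11, adjusted p = 0.001), -0.30 for CDKN2D (SE 0.08, adjusted p = 0.0135), -0.41 for CDKN1B (SE 0.07, adjusted p = 0.000601) and -0.38 for CDKN2C (SE 0.07, adjusted p = 0.00123). Within range A, which held 3 arrays of U373cc3 and all 9 of U373neo after UV, CDKN2B lay at -0.88. Those 3 arrays were all of U373cc3 UV replicate 3, so this value cannot tell that replicate and the range apart.

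GADD45A had deposited intensities of 9429, 9937 and 9231 in U373cc3 after UV, against 6670, 7137 and 7000 in U373neo after UV. GADD45B had 2353, 2113 and 2067 in U373cc3, against 1418, 1402 and 1319 in U373neo. Both were higher in all U373cc3 samples. Log2 changes were 0.66 for GADD45B (SE 0.09, adjusted p = 0.000174), 0.46 for GADD45A (SE 0.13, adjusted p = 0.0171) and 0.32 for GADD45G (SE 0.09, adjusted p = 0.0139). GADD45A did not pass without U373cc3 UV replicate 2 (0.43, adjusted p = 0.0553). For CDKN1A, deposited intensities were 3603, 3857 and 3760 in U373cc3 after UV against 3864, 4177 and 3960 in U373neo after UV. All U373cc3 values were the lower ones, by a log2 change of -0.10 (95% confidence interval -0.30 to 0.11, adjusted p = 0.458).

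None of the measured members lies on chromosome 11 or 13, where the 521 and 140 measured genes had median log2 changes of -0.47 and -0.75 between the untreated clones. For each member, the 40 measured genes nearest to it on its chromosome had a median clone difference between -0.11 and 0.22, untreated or after UV. Several genes of the CDK inhibitor network do lie on chromosome 11 or 13, among them RB1, TFDP1, DDB1 and CUL4A. Of 17 RB and E2F genes on any chromosome 0 were higher and 8 lower in untreated U373cc3, led by E2F7 (-1.03), E2F3 (-0.80) and TFDP1 (-0.77). After UV 0 were higher and 11 lower, led by RB1 and E2F3 (both -0.97) and E2F7 (-0.94). Lower calls were 17.3% of all probes untreated and 19.8% after UV. RB1 and TFDP1 are on chromosome 13. DDB1, which with CUL4A targets CDKN1A for degradation, changed by -0.72 untreated and -0.87 after UV, and CUL4A by -0.44 and -0.47. DDB1 is on chromosome 11 and CUL4A on chromosome 13.

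The other lists differed in direction between the clones. Among all probes, 20.8% were higher and 17.3% lower in untreated U373cc3, and 18.2% were higher and 19.8% lower after UV. Untreated U373cc3 had 0 higher and 4 lower of 12 turnover genes and 0 higher and 4 lower of 10 Polycomb genes, and after UV the counts were 1 and 3, and 1 and 4. CBX2, a Polycomb subunit, changed most in its list (-0.63 untreated, -0.85 after UV). Of 8 GADD45 partners 2 were higher and 2 lower without UV, and 4 higher and 0 lower after it. EGR1, an early response factor that can activate CDKN1A and GADD45A, was higher in U373cc3 by 3.58 on the log2 scale untreated and by 2.80 after UV, and FOXO1, on chromosome 13, changed by -1.12 and -1.46. Of 18 transcription regulators tested without UV 4 were higher and 6 lower, and of 17 after UV 3 were higher and 4 lower. Cyclin E1 was lower in U373cc3 (-0.49 untreated, -1.09 after UV) and cyclin D2 (CCND2), a partner of CDK4 and CDK6, was higher (0.45 and 0.55). Among GADD45 partners MAP2K3, a p38 kinase kinase, was higher in U373cc3 (0.72 untreated, 0.39 after UV) and so was MAPK8 (0.52 and 1.17). DDIT3, a stress factor once named GADD153, was 2.65-fold higher in untreated U373cc3 and 3.30-fold higher after UV, and PPP1R15A, also called GADD34, 1.85-fold and 1.75-fold. Of the p53 targets 4 of 12 were higher and 4 lower in untreated U373cc3, and 3 of 11 were higher and 5 lower after UV. TP53INP1 (-1.48, -1.34), DDB2, on chromosome 11 (-1.42, -1.73), and FDXR (-1.01, -1.22) were lower. PLK3 was 2.37-fold and 2.11-fold higher, and ZMAT3 was higher too (0.77, 0.84).

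The UV changes of both clones were also set against each other in 1 test. CDKN1A was the member that passed, with a UV change lower in U373cc3 by 0.52 on the log2 scale (SE 0.14, 95% confidence interval -0.82 to -0.22, adjusted p = 0.0468). This was 1 of 8 members, against 6.2% of the 11602 probes, of which 2.2% were higher and 4% lower in U373cc3. The adjusted p lay close to the threshold and rose above it when any one of 10 of the 12 replicates was left out. It was below the threshold without untreated U373neo replicate 2 and without U373neo UV replicate 1, and over all 20 alternatives it ranged between 0.00316 and 0.11.

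For the other members the estimate was also lower in U373cc3 or close to 0. It was -0.65 for GADD45A (95% confidence interval -1.08 to -0.22, adjusted p = 0.0744), -0.44 for CDKN2B (-0.78 to -0.10, adjusted p = 0.114), -0.33 for GADD45B (-0.61 to -0.04, adjusted p = 0.148) and -0.31 for CDKN2D (-0.57 to -0.05, adjusted p = 0.139). None of these passed over all probes, although their unadjusted intervals did not include 0. GADD45A passed without untreated U373neo replicate 2 (-0.77, adjusted p = 0.0463). The estimate was 0.01 for CDKN1B (-0.20 to 0.22), 0.04 for CDKN2C (-0.18 to 0.26) and -0.07 for GADD45G (-0.35 to 0.21). The median over the members was -0.32, against -0.03 over all probes. Within range A, UV changes were -0.14 in U373cc3 and 0.41 in U373neo for CDKN1A, and 1.99 and 2.60 for CDKN2B. The U373cc3 UV arrays of that range were the 3 arrays of replicate 3 alone.

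Of the 17 RB and E2F genes 1 differed in its UV change, E2F6 by -0.40, and of 11 growth arrest and stress genes 1 was higher, BTG2 by 0.46, and 2 lower, DDIT4 by -0.53 and KLF10. None of the 17 cyclins, CDKs and activators passed, nor any of the 12 genes for turnover of CDK inhibitors, the 10 Polycomb genes or the 11 p53 targets. Among all probes 6.2% passed. EGR1 differed by -1.03, with a UV change of -0.08 in U373cc3 and 0.95 in U373neo, and KLF10, a growth inhibitory factor induced by TGF-beta, by -0.86, with -0.43 and 0.43. MAPK8 differed by 0.66 (adjusted p = 0.0259), since it fell less in U373cc3.

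The genes whose intensities over the 12 replicates were most like each member are given as a description, without a test, since these replicates fall into 4 groups and share arrays and scaling. Among 7985 other genes, CDKN2B was most like RPP38-DT (Pearson r = 0.991), FBXL6 (0.989) and TMEM177 (0.989), and GADD45B most like DUSP28 (0.992), MIR7-3HG (0.991) and CLPP (0.990). CDKN1A was most like TMUB2 (0.949), ZFAND2B (0.935) and CIART (0.926), the lowest likeness among the 8 members. CDKN1B was most like MPHOSPH8 (0.988), CDKN2C like RRM1 (0.975), CDKN2D like MTFMT (0.972), GADD45A like ABCB9 (0.967) and GADD45G like UAP1 (0.986).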

How the data were processed

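RNA of 12 biological replicates was amplified, labelled with Cy5 and hybridized by the authors to Phalanx Human OneArray arrays, 36 in all. The deposited values are linear intensity values from 10.9 to 65490, quantile-normalized by the authors in GeneSpring, and probes without a value are blank. Values were log2-transformed, and each replicate was the mean of its 3 technical arrays. limma 3.58.1 (R 4.3.3) was fitted over the 4 groups, with Benjamini-Hochberg adjustment over all probes and a threshold of 0.05. Clone comparisons used 12300 untreated and 12343 UV probes as deposited. UV changes used quantile normalization of all 36 arrays over 11602 probes, because the authors' scaling differed by treatment. Symbols came from the platform table, with 1486 older ones updated through RefSeq synonyms. The scripts were tested on simulated data. Members, lists and tests were chosen with earlier results of these data known. All measured members, up to 3 changed genes of each list with the largest change, and the 3 genes most like a member were to be named. RB1, FOXO1, FDXR, ZMAT3, PLK3, CCNE1, CCND2, KLF10, CUL4A, MTAP, DDIT3, PPP1R15A, MAPK8, MAPK14 and MAP3K4 were also followed across comparisons after their values were seen. Precision was limited by the number of arrays.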

Additional observations from a re-analysis of the deposited data

Results flagged for a closer look

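CDKN1A had unequal UV changes in the clones, with a log2 difference of -0.52 (limma adjusted p = 0.0468), at -0.02 in U373cc3 and 0.51 in U373neo. This difference did not pass under 13 of 20 alternatives. Among the 9 arrays of a group, 2 of 32 sets of gene and group held an array apart from the other 8 by Dixon's criterion, where chance gives about 1 in 20. For CDKN1A in U373cc3 after UV, replicate 1 array 2 read 3325, and the others read 3685 to 3976. For CDKN2B in untreated U373neo, replicate 2 array 1 read 369.7, and the others read 441.2 to 490.0. That same array was the highest of its group for GADD45B, at 563.9 against 272.3 to 415.9, without passing the criterion. These are technical arrays, which were averaged within their replicate.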

How the results depend on the processing

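Of 25 member changes past the threshold, 18 stayed past it in the same direction under every alternative run. These included CDKN2B and GADD45B after UV in both clones, CDKN1A, CDKN2D and GADD45A after UV in U373neo, and GADD45A, GADD45B, CDKN1B and CDKN2C between the untreated clones. The 7 others are named with their exceptions in the results or here. CDKN1A and GADD45G between the untreated clones did not pass the methods' t-test after adjustment (adjusted p = 0.0933 and 0.105), nor did GADD45G after UV in U373neo (adjusted p = 0.0796). That test called 3050 probes between the untreated clones, against 4698 in limma, and 4935 before adjustment. For the difference of the UV changes, the number of members past the threshold was 0 with median centring and 0 on deposited values, against 1. It was 4 over single arrays and 4 with the serial range added (CDKN1A, CDKN2B, CDKN2D and GADD45A). Both of these fits took the same correlation between technical arrays, 0.273, for all probes, and it was not fitted probe by probe. Within range A, U373cc3 after UV was replicate 3 alone, so no count is given for it. Leaving out 1 replicate gave 0 to 2 members and 229 to 973 probes, against 719, and single arrays gave 1403 probes and 1412 with the range. The cause of these changes was not tested.

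With the replicate number as a block, 451 probes passed for the difference of the UV changes. CDKN1A then did not pass (adjusted p = 0.0808) and GADD45A did (adjusted p = 0.0478), and the block changed no other call of a member. The numbers were not treated as pairs, since 6 of 18 correlations between same-numbered samples exceeded 0.1 (range -0.34 to 0.37) and 5 were the highest for that sample.

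Signs turned only for changes that had not passed. With median centring, CDKN2C after UV became 0.25 in U373cc3 and 0.23 in U373neo and CDKN1A in U373cc3 0.12, and CDKN2C in U373cc3 was 0.018 on deposited values. CDKN1A in U373cc3 ran from -0.076 to 0.080 when 1 replicate was left out. For the difference of the UV changes, CDKN1B became -0.040 with centring, -0.038 on deposited values, -0.036 with the serial range and -0.072 within range A, and ran from -0.043 to 0.040 on leaving out 1 replicate. CDKN2C became -0.024 with the range, -0.095 within range A and ran from -0.015 to 0.11 on leaving out 1 replicate, and GADD45G became 0.077 within range A and ran from -0.15 to 0.012. CDKN2D between the untreated clones became -0.070 with the range, -0.051 within range A and ran from -0.082 to 0.071 on leaving out 1 replicate.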
